A study of Mus musculus with 15 samples.

Results

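Tumours of the 2225L model were compared with tumours of the 2151R model across all 17271 genes of the deposited expression table. The members were the 2 samples whose titles begin with 2225L and the 4 whose titles begin with 2151R, 6 of the 15 samples in the series. Each sample was a mammary tumour from a BALB/c mouse, labelled p53 null in every group, and its poly(A) RNA was sequenced. Each of the 4 titles of 2151R carries a tag of its own (2151R-5310, 2151R-53ca, 2151R-NT2 and 2151R-NT for replicates 1 to 4), and what the tags mean is not given. Replicate 1 of 2225L carries the tag T-Vivo and the library prefix CP and is called the CP sample here. Replicate 2 carries the prefix ROSEN and is called the ROSEN sample. No treatment, time or age is given for these 6 samples, and nothing says whether the samples of a model came from separate mice, so the spread between them may be technical. A transplantable tumour line descends from a single original tumour, so samples of a line do not stand for different tumours of its kind.

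Mammary tumours can lie anywhere between epithelial and mesenchymal cell states. Epithelial cells hold together through E-cadherin, claudins and desmosomes, and express splicing and transcription factors of the Esrp, Grhl and Ovol families. Cells that have passed through an epithelial to mesenchymal transition (EMT) lose these and express factors such as Zeb1, which represses epithelial genes, together with vimentin and N-cadherin. In mammary tumours the epithelial end is further divided into basal cells, marked by keratins 5 and 14 and by p63, and luminal cells, marked by keratins 8 and 18 and by hormone receptors.

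Values are log2 expression after centring of each gene on a reference that is not stated, so a value of 1 above another is a factor of 2. A value tells how a gene stands in a sample against its own reference, and levels of different genes cannot be ranked. The depth is unknown, since counts are not in the table. Whether a mammary marker is present at all cannot be read from centred values. A gene is called here when limma, fitted to all 15 samples, gave a Benjamini-Hochberg adjusted p under 0.05. A call is said to hold in both samples when the CP sample and the ROSEN sample both lay above, or both below, all 4 samples of 2151R.

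Of 17271 genes, 3934 (22.8%) were higher and 4464 (25.8%) were lower in 2225L, together 48.6%. The call held in both samples for 3845 of the higher genes (22.3% of all genes) and 4371 of the lower genes (25.3% of all genes), which is 97.7% and 97.9% of the calls in each direction. The call and this rule use the same values, so these shares are not a separate replication. Whatever the p, both samples lay above all 4 of 2151R at 4997 genes (28.9%) and below at 5773 (33.4%). Among the calls that held, 2464 higher and 2733 lower genes differed from the mean of 2151R by at least 1 in each sample of 2225L. The groups were at least 5 apart, from the nearest sample of one to the nearest of the other, at 236 of the genes that were higher in both and at 120 of those that were lower in both. The median difference over all genes was -0.10. Fitted with each sample of 2225L alone, the calls shared by both fits were fewer, 2292 higher and 2467 lower. All 4 libraries of 2151R have the prefix CP and consecutive library numbers, so the model and that run of libraries cannot be told apart.

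The 2 samples of 2225L differed from each other more than those of 2151R did. Their median absolute difference over genes was 0.679, against 0.179 to 0.346 in the 6 pairs of 2151R samples. At 2002 genes they were at least 2 apart (955 higher in the CP sample and 1047 in the ROSEN sample), while pairs of 2151R samples were that far apart at 182 to 499 genes. At 1707 genes (9.88%), one sample of 2225L lay above and the other below all 4 of 2151R. Of the calls, 89 higher and 93 lower did not hold in both. These are described after the gene groups.

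Among genes in which no 2 of the 6 samples share an exact value, and without predicted genes, the widest gaps with 2225L higher were at Rhox5, Brinp2, Gabrp, Etnk2 and Wnt6. Gpx2, left out by this rule, had a gap of 11.58 and is given with the glutathione genes. Rhox5, an X-linked homeobox gene known from the testis and placenta (chrX:37754608-37808878 in GRCm38.p6), was at 11.66 in the CP sample and 10.63 in the ROSEN sample, and at -3.15, -1.90, -2.54 and -2.51 in 2151R. The difference was 13.68 (SE 0.80, limma adjusted p 2.98e-08), and 1 of the 2151R values is one that other samples share exactly. In the 8 samples of a further model, 2208L, of which 4 are tagged PBS and 3 carry 3day and nt in their titles, Rhox5 ran from -2.59 to 0.31, below both samples of 2225L. It was the only one of 13 Rhox genes sought that the table lists.

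Brinp2, a gene expressed in the nervous system (chr1:158245265-158356528), was at 11.62 and 12.15 in 2225L against 0.33, 0.57, 0.36 and 0 in 2151R (difference 11.57, SE 0.30, limma adjusted p 2.87e-11). Gabrp, the pi subunit of the GABA type A receptor (chr11:33550781-33578978), was at 5.02 and 5.79 against -6.81, -6.00, -5.20 and -4.17 (difference 10.95, SE 0.77). Etnk2, an ethanolamine kinase (chr1:133363463-133380318), was at 5.37 and 5.42 against -5.92, -3.51, -5.31 and -4.27 (difference 10.15, SE 0.62). In these genes the 2 samples of 2225L stood together, and the gap to the nearest 2151R sample was wider than the range within 2151R. Wnt6 (chr1:74754342-74785322) is given with the Wnt genes.

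By the same rule the widest gaps in the other direction were at Dynap, Ccbe1, Nptx1, Prdm8 and Sgk2. Dynap, a membrane protein that interacts with dynactin (chr18:70240429-70244584), was at -4.09 and -4.53 in 2225L and at 6.43, 6.08, 6.50 and 6.16 in 2151R (difference -10.60, SE 0.70, limma adjusted p 8.2e-08). Prdm8, a histone methyltransferase family member of the nervous system (chr5:98167203-98187454), was at -1.90 and -2.32 against 7.24, 6.78, 6.88 and 7.39 (difference -9.19, SE 0.63). Sgk2, a serum and glucocorticoid regulated kinase (chr2:162987327-163014139), was at -2.03 and -3.0 against 7.24, 6.62, 7.78 and 7.41 (difference -9.78, SE 0.68). For Ccbe1, a secreted factor of lymphatic vessel growth (chr18:66056855-66291838), and Nptx1, a neuronal pentraxin (chr11:119538719-119547820), the 2 samples of 2225L stood further apart. Ccbe1 was at -4.79 and -8.37 against 4.09 to 4.92, and Nptx1 at -1.36 and -5.47 against 7.43 to 8.25.

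**Figure D1:**
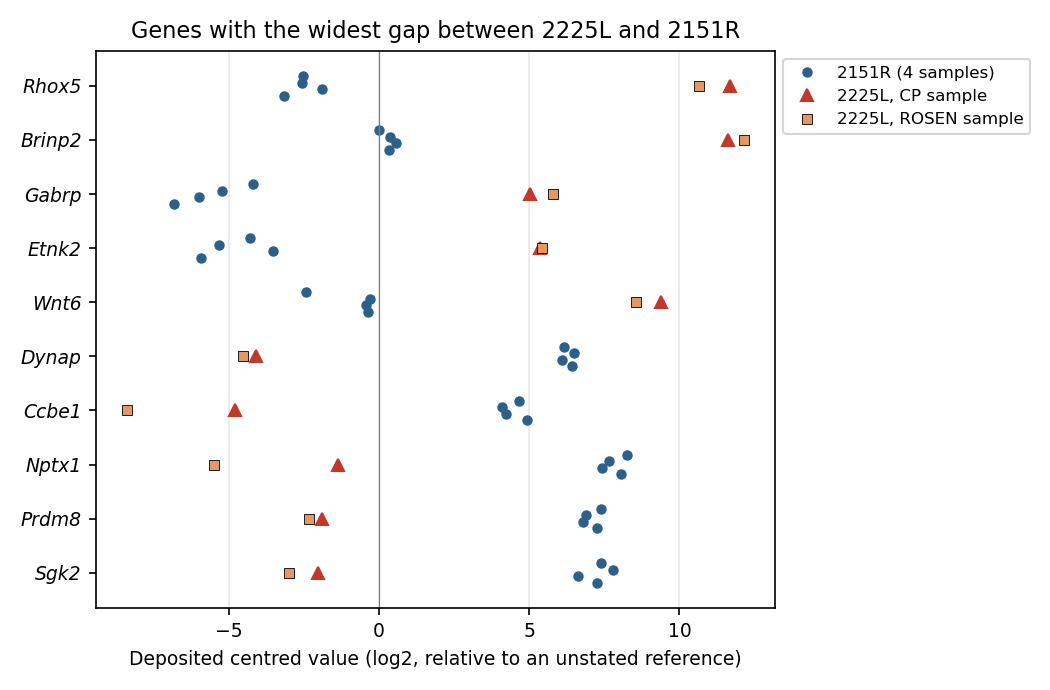
Deposited centred log2 values (horizontal axis) of the 10 genes with the widest gap between the groups, 5 in each direction, leaving out predicted genes and those with a value shared among the 6 samples (such as Gpx2), with a point for each of 4 samples of 2151R, the CP sample and the ROSEN sample of 2225L. The samples of 2225L lie to the right of every 2151R sample for the upper 5 genes and to the left for the lower 5, and they are furthest apart at Nptx1 (-1.36 and -5.47).

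Trp53, which encodes p53 and is labelled null in every group, was at 1.63 in the CP sample, at -0.18 in the ROSEN sample and at 0.20, 0.29, 0.09 and 0.19 in 2151R. The samples of 2225L lay on opposite sides of 2151R, and the difference of 0.53 was not called (SE 0.35, limma adjusted p 0.231). With the CP sample alone it was called, at 1.44, and with the ROSEN sample alone it was -0.38. Centred values do not show whether the gene is expressed.

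Genes of epithelial adhesion and tight junctions were higher in 2225L nearly throughout the list. Of 24 members, 22 were higher in both samples, where 22.8% of all genes were called higher, and the median difference was 5.81 against -0.10 over all genes. Cdh1, which encodes E-cadherin, was at 0.64 and 0.03 in 2225L and at -5.34, -6.13, -5.36 and -5.34 in 2151R (difference 5.87, SE 0.26, limma adjusted p 2.69e-09). Epcam, an adhesion molecule of epithelial surfaces, was at 1.23 and 0 against -5.97, -6.30, -5.08 and -5.46 (difference 6.32, SE 0.37). In both genes the nearest samples of the groups were more than 5 log2 units apart. Bulk RNA does not tell fewer cells of a type from less RNA per cell.

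Cldn7, a claudin that seals the space between neighbouring cells, had the largest difference of the list. It was at 0.86 and 1.20 in 2225L and at -6.92, -7.72, -6.16 and -7.52 in 2151R (difference 8.11, SE 0.44, limma adjusted p 1.43e-08). Crb3, a protein of the apical polarity complex, was at 1.31 and 1.71 against -5.42, -6.47, -5.27 and -6.23 (difference 7.36, SE 0.37). The other claudins measured rose as well, by 7.34 (Cldn4), 7.27 (Cldn3), 6.54 (Cldn8) and 5.53 (Cldn1). Tjp1, a cytoplasmic scaffold that many cell types use, was not called. It was at 0 and -1.16 against -0.42 to 0.55, so the groups overlapped, while Tjp3 of the same family was at 2.54 and 2.49 against -3.33 to -3.06.

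The promoters of Epcam and Cldn7 are printed because repressors of the Zeb and Snail families are known to bind the E-box CACCTG, which reads CAGGTG on the opposite strand, in promoters of epithelial genes, and these 2 genes move with the list. The sequences are from RefSeq on GRCm38.p6, run from 250 bases before to 50 bases after a start site on the plus strand, and show the E-box in capitals. The Epcam promoter spans chr17:87635729-87636028. The Cldn7 promoters, for 2 start sites, span chr11:69964529-69964828 and chr11:69965171-69965470.
Epcam: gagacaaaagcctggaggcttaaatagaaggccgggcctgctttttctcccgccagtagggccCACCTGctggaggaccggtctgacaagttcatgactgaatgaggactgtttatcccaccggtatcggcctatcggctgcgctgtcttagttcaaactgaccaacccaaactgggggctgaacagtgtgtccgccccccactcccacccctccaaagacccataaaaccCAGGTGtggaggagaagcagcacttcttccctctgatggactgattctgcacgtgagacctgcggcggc
Cldn7 promoter 1: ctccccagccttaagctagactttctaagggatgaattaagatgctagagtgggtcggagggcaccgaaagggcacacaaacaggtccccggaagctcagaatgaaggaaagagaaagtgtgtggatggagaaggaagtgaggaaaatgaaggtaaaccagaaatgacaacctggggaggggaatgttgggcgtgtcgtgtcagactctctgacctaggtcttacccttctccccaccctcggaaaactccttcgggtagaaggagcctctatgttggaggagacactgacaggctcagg
Cldn7 promoter 2: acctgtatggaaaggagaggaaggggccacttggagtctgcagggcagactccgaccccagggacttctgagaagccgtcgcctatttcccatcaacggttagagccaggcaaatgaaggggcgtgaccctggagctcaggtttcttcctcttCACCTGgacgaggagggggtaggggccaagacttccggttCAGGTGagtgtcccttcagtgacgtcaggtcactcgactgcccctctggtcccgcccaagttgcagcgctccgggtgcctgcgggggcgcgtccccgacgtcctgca
The Epcam promoter holds the E-box 2 times, with its first base at -187 and at -19 from the start site, and the second Cldn7 promoter holds it 2 times, at -97 and -57. The first Cldn7 promoter does not hold these letters. Searched on both strands, the E-box is in 6640 of the 32851 promoters of the table (20.2%). A match describes the sequence and is not a measured binding site. No share is given for the gene lists, because under 80% of their members have a promoter entry.

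The regulators of epithelial identity followed the adhesion genes with named exceptions. Of 19 transcription and splicing regulators, 16 were higher and 2 lower, each in both samples, where 22.8% and 25.8% of all genes were called. The median difference was 6.45. Tfap2c, a transcription factor of mammary and skin epithelium, was at 0.71 and 0 in 2225L and at -7.28, -8.19, -7.04 and -7.47 in 2151R (difference 7.85, SE 0.31, limma adjusted p 1.29e-09). Grhl3, a grainyhead factor of epithelial barriers, was at 4.39 and 0.87 against -7.47 in 1 sample and -6.22 in 3, and those 3 share an exact value (difference 9.17, SE 0.77). Esrp1 and Esrp2, which direct epithelial splicing, differed by 6.45 and 5.91, and Ovol1 and Ovol2, zinc fingers that oppose the mesenchymal state, by 6.84 and 7.30. The samples of 2225L were close to each other for Esrp1 (0.36 and 0) and wide apart for Grhl3.

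Lineage factors within this list moved in different directions. Trp63, which encodes the basal factor p63, was at 5.55 and 4.08 in 2225L against -0.70 to -0.24 in 2151R (difference 5.29, SE 0.44, limma adjusted p 7.05e-07). Sox10 rose by 7.38, and Spdef and Foxa1, luminal factors, by 7.22 and 2.67. Gata3, the main luminal regulator of the gland, was lower, at -2.57 and -3.16 against 2.26, 1.34, 1.89 and 2.14 (difference -4.77, SE 0.36, limma adjusted p 3.01e-07). Tfap2a differed less (-1.23, SE 0.20). Klf5 was not called, with the CP sample at 0.60 above and the ROSEN sample at -1.47 below the 2151R range of -0.21 to 0.45.

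EMT transcription factors did not move as a block. Of 11, 6 were lower and 3 higher in 2225L, each in both samples, where 25.8% and 22.8% of all genes were called. Zeb1 was at -0.84 and -1.94 in 2225L and at 3.57, 2.91, 2.92 and 3.41 in 2151R (difference -4.59, SE 0.49, limma adjusted p 6.35e-06). Zeb2, Prrx1, Snai1, Tcf4 and Twist1 were also lower, by -3.83, -3.65, -2.88, -2.36 and -0.69 on the log2 scale. The 3 higher factors were Snai3, Snai2 and Foxc1. Snai3, the least studied Snail factor, was at 3.61 and 0.68 against -2.08, -3.58, -1.79 and -2.76 (difference 4.70, SE 0.84, limma adjusted p 0.000528), and Snai2, a Snail factor that normal basal mammary cells also express, was at 0.36 and 0 against -3.06 to -2.04. Twist2 and Foxc2 were not called. The samples of 2225L lay on opposite sides of 2151R at Foxc2, and the ROSEN sample lay within 2151R at Twist2.

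**Figure D2:**
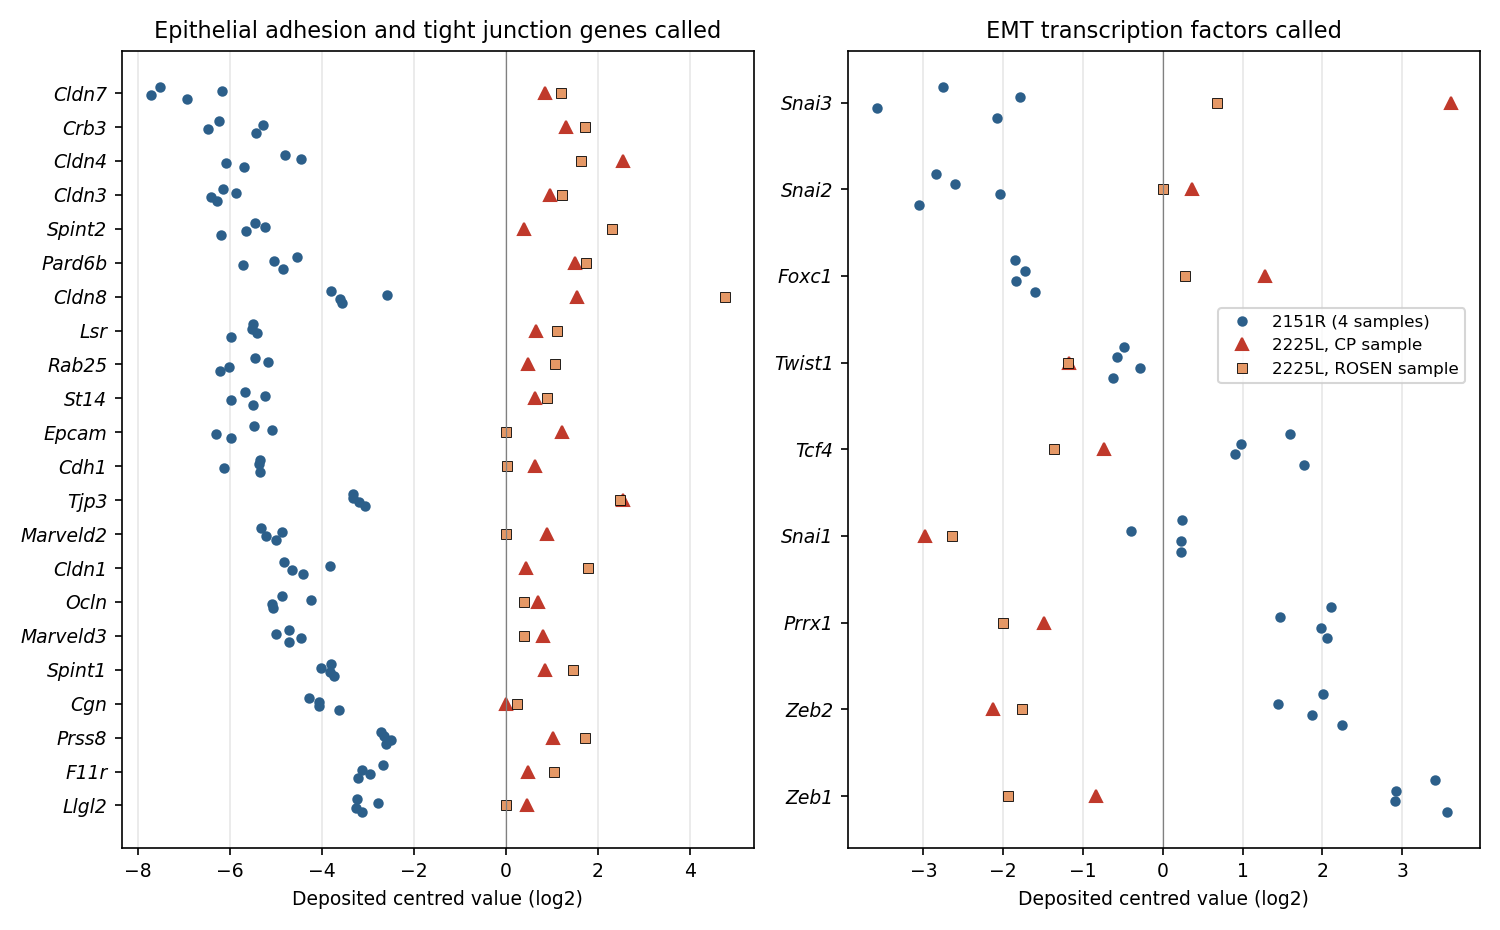
Deposited centred log2 values (horizontal axes) of the called members among epithelial adhesion and tight junction genes (left, 22) and EMT transcription factors (right, 9) in the 4 samples of 2151R and the CP and ROSEN samples of 2225L, with genes ordered by their difference. On the left both samples of 2225L lie above every sample of 2151R for all 22 genes, and on the right 3 factors lie higher and 6 lower in 2225L.

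Mesenchymal structure genes were lower in part. Of 15, 8 were lower and 1 higher in both samples, with a median difference of -1.82, where 25.8% of all genes were called lower. Cdh2, which encodes N-cadherin, was at -2.77 and -3.05 in 2225L and at 2.25, 1.62, 1.95 and 2.07 in 2151R (difference -4.88, SE 0.39, limma adjusted p 5.09e-07). Vim, the intermediate filament vimentin, was at -0.14 and -0.56 against 2.23 to 2.32 (difference -2.62, SE 0.24), and Axl, a receptor kinase of the mesenchymal state, was lower by -3.09. S100a4, a calcium-binding protein of motile cells, was at -3.40 and -2.24 against 0.41, 1.06, 0.83 and 1.14 (difference -3.68, SE 1.12, limma adjusted p 0.0158), and without the CP sample its call was lost (adjusted p 0.106). Genes of contractile cells did not follow: Cnn1 was higher (1.86, SE 0.69, limma adjusted p 0.0402), while Acta2 (0.47) and Tagln (1.21) were not called. Without the ROSEN sample 5 members were lower, and the call of Cnn1 was lost on leaving out either sample of 2225L or replicate 1, 3 or 4 of 2151R.

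Basal and squamous genes were higher in 2225L. Of 20 sought, 14 were measured and 12 of these were higher in both samples, where 22.8% of all genes were called higher. The median difference was 5.58. Krt14, a basal keratin, was at 6.63 and 5.84 in 2225L and at -0.58, -0.71, -0.11 and 0 in 2151R (difference 6.59, SE 0.67, limma adjusted p 4.13e-06). Krt17, a keratin of basal and stressed epithelium, was at 4.69 and 2.32 against -4.20, -3.31, -3.13 and -4.08 (difference 7.19, SE 0.58). Lgals7, a galectin of stratified epithelium, was at 1.81 and 3.18 against -5.29, -6.50, -5.45 and -5.28 (difference 8.13, SE 0.52, limma adjusted p 6.85e-08). Dsg3, a desmosomal cadherin of stratified epithelium, held in both but unevenly, at 6.64 in the CP sample and -0.64 in the ROSEN sample against -3.27 to -1.86. Krt10 and Sprr1a, which mark outer layers of squamous epithelium, were not called.

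Desmosome and hemidesmosome genes, which anchor keratin filaments to neighbouring cells and to the basement membrane, gave 14 of 16 higher in both samples. Of all genes 22.8% were called higher. The median difference of the list was 3.47. Perp, a desmosomal membrane protein, was at 1.45 and 0.78 in 2225L and at -6.23, -6.17, -5.43 and -5.46 in 2151R (difference 6.94, SE 0.30, limma adjusted p 2.54e-09). Dsp, desmoplakin, was at 1.54 and 0 against -4.55, -5.64, -4.86 and -4.06 (difference 5.54, SE 0.52). The genes of the laminin under basal cells rose too, Lamb3 by 5.43 and Lama3 by 2.44. Pkp2 and Itga6 were not called (differences of -0.38 and 0.88).

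Luminal and milk genes were called in both directions. Of 18 measured, 7 were higher and 4 lower, each in both samples, where 22.8% and 25.8% of all genes were called, with a median difference of 1.35. The luminal keratin Krt8 was at 0 and 1.52 in 2225L and at -6.52, -6.55, -4.84 and -5.15 in 2151R (difference 6.53, SE 0.51, limma adjusted p 3.78e-07), and its partner Krt18 rose by 2.64. Areg, Esr1 and Prlr were among the lower genes. Areg, an EGF receptor ligand that estrogen induces in the gland, was at -3.45 and -3.86 against 2.27, 1.31, 2.78 and 2.71 (difference -5.92, SE 0.48, limma adjusted p 5.83e-07). The estrogen receptor gene Esr1 was lower by -3.52 and the prolactin receptor gene Prlr by -2.57. Of the milk protein genes, Csn1s1, Csn2, Csn3 and Lalba were not called, and 2151R itself ranged from -3.13 to 5.24 at Csn2.

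Ligands and receptors of the EGF family moved in both directions. Of 12 measured, 5 were higher and 3 lower in both samples, with a median difference of -0.92. Of all genes 22.8% were called higher and 25.8% lower, so the share of lower members is that of all genes. Areg, an EGF receptor ligand lower by -5.92, is counted in the luminal list and not in this one. Among receptors, Erbb3 was at 1.73 and 0.50 in 2225L against -4.10, -4.69, -4.22 and -4.38 in 2151R (difference 5.46, SE 0.48, limma adjusted p 1.13e-06), and Erbb2 rose by 2.70, while Egfr was not called (-1.43). Among ligands, Tgfa was at 2.41 and 1.73 against -3.81, -3.92, -3.63 and -3.36 (difference 5.75, SE 0.36), and Nrg1 and Nrg2 rose by 1.01 and 2.74. The ligands Ereg, Hbegf and Btc were lower, by -4.66, -3.50 and -2.42. On leaving out the CP sample, 6 members were lower.

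Of 11 FGF ligands, receptors and carriers, 3 were higher, a share near the 22.8% of all genes. In the other direction 1 was lower, where 25.8% of all genes were called lower. Each call held in both samples, and the median difference was 0.89. Fgfr2, the FGF receptor that mammary epithelium needs, was at 5.30 and 4.79 in 2225L and at 0.38, 1.34, 1.60 and 1.03 in 2151R (difference 3.96, SE 0.85, limma adjusted p 0.00196). Fgfbp1, a secreted carrier of FGFs, was at 4.57 and 4.75 against -1.98, -1.73, -1.73 and -0.75, where 2 samples share an exact value (difference 6.21, SE 0.98). Fgfr3 rose by 2.01, and Fgf2 was lower by -2.10. A second member was lower without the CP sample (2 in all).

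In the TGF-beta family 8 of 15 genes were lower and 3 higher, where 25.8% and 22.8% of all genes were called, with a median difference of -1.71. All 3 higher and 7 of the 8 lower calls held in both samples. Inhba, a subunit of activin, was at -2.72 and -3.93 in 2225L and at 2.16, 1.76, 1.52 and 2.42 in 2151R (difference -5.29, SE 0.46, limma adjusted p 1.06e-06). Bmp7, a bone morphogenetic protein, was at 8.51 and 8.72 against 0, -4.04, -0.12 and 1.02 (difference 9.40, SE 1.10, limma adjusted p 1.4e-05), with a wide spread in 2151R. The receptors Tgfbr1 and Tgfbr2 and the feedback genes Skil and Smad7 were lower, by -1.48, -2.01, -1.79 and -1.90. Tgfb2 and Inhbb were higher, by 1.71 and 1.95, and Tgfb1 and Tgfb3 were not called.

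Of 17 Wnt ligands and modulators measured, 8 were higher and 3 lower in both samples, where 22.8% and 25.8% of all genes were called. The median difference was 1.45. Wnt6 was at 9.38 and 8.56 in 2225L and at -0.36, -0.44, -0.28 and -2.42 in 2151R (difference 9.85, SE 0.70, limma adjusted p 1.57e-07). Its neighbour on chromosome 1, Wnt10a, was at 1.02 and 0.38 against -3.50 to -2.59, and Wnt5b rose by 4.99. Wnt7b was lower, at -3.60 and -2.32 against 2.18, 1.99, 2.06 and 2.20 (difference -5.06, SE 0.30, limma adjusted p 4.07e-08). Among genes known to respond to the pathway, Notum rose by 4.39, Axin2 by 2.48 and Lgr5 by 2.25. Axin2 was high mainly in the CP sample (3.35, with 0.43 in the ROSEN sample against -1.17 to -0.08).

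Of 16 genes of glutathione metabolism and the Nrf2 response measured, 3 were higher and 5 lower, near the 22.8% and 25.8% of all genes. The median difference was -0.26. Gpx2, a glutathione peroxidase of epithelium, was at 1.85 and 3.14 in 2225L and at -9.73, -10.48, -10.48 and -11.08 in 2151R, where 2 samples share an exact value (difference 12.94, SE 0.43, limma adjusted p 3.43e-10). Gsta4, a glutathione transferase, was at 2.85 and 2.54 against -3.01, -2.09, -1.92 and -3.16 (difference 5.24, SE 0.45). Srxn1, which repairs oxidised peroxiredoxins, and Slc7a11, the cystine importer, were lower in both samples, by -5.11 and -3.88. Gsta3 was called higher but was within the 2151R range in the CP sample (0.88, with 6.51 in the ROSEN sample). Without the ROSEN sample 3 members were lower.

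Of 18 mitosis genes 3 were lower in both samples (Foxm1, Bub1 and Ccnb1), where 25.8% of all genes were called lower, with a median difference of -0.14. Foxm1, a factor that drives mitotic genes, was at 0.40 and -0.06 in 2225L and at 1.44, 0.85, 1.02 and 1.19 in 2151R (difference -0.95, SE 0.24, limma adjusted p 0.00547). Bub1, a spindle checkpoint kinase, was at 0.38 and 0.05 against 1.38, 1.12, 1.12 and 1.11 (difference -0.97, SE 0.27, limma adjusted p 0.0101). The calls of Foxm1 and Bub1 were lost without the ROSEN sample (adjusted p 0.0734 and 0.0911 by limma), where 1 member was lower, and 5 were lower without replicate 2 of 2151R. Without the CP sample 2 members were higher.

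Among 19 G1 regulators, 4 were higher and 6 lower, near the shares of all genes (22.8% and 25.8%), with a median difference of -0.10, and all but Cdk6 held in both samples. Cdkn1c, an imprinted inhibitor of cyclin-dependent kinases, was at 5.61 and 5.12 in 2225L and at -1.23, 0, -1.23 and -0.82 in 2151R (difference 6.18, SE 0.65, limma adjusted p 5.48e-06). Ccnd2 (cyclin D2) was at 0 and -1.24 against -2.99, -3.17, -3.80 and -3.38 (difference 2.72, SE 0.38), while Ccnd1 (cyclin D1) was lower by -1.06. Ccne1 rose by 1.94 and Ccne2 fell by 1.45 on the log2 scale, and Rb1, the retinoblastoma gene, fell by 1.88. Without the ROSEN sample 3 members were lower.

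**Figure D3:**
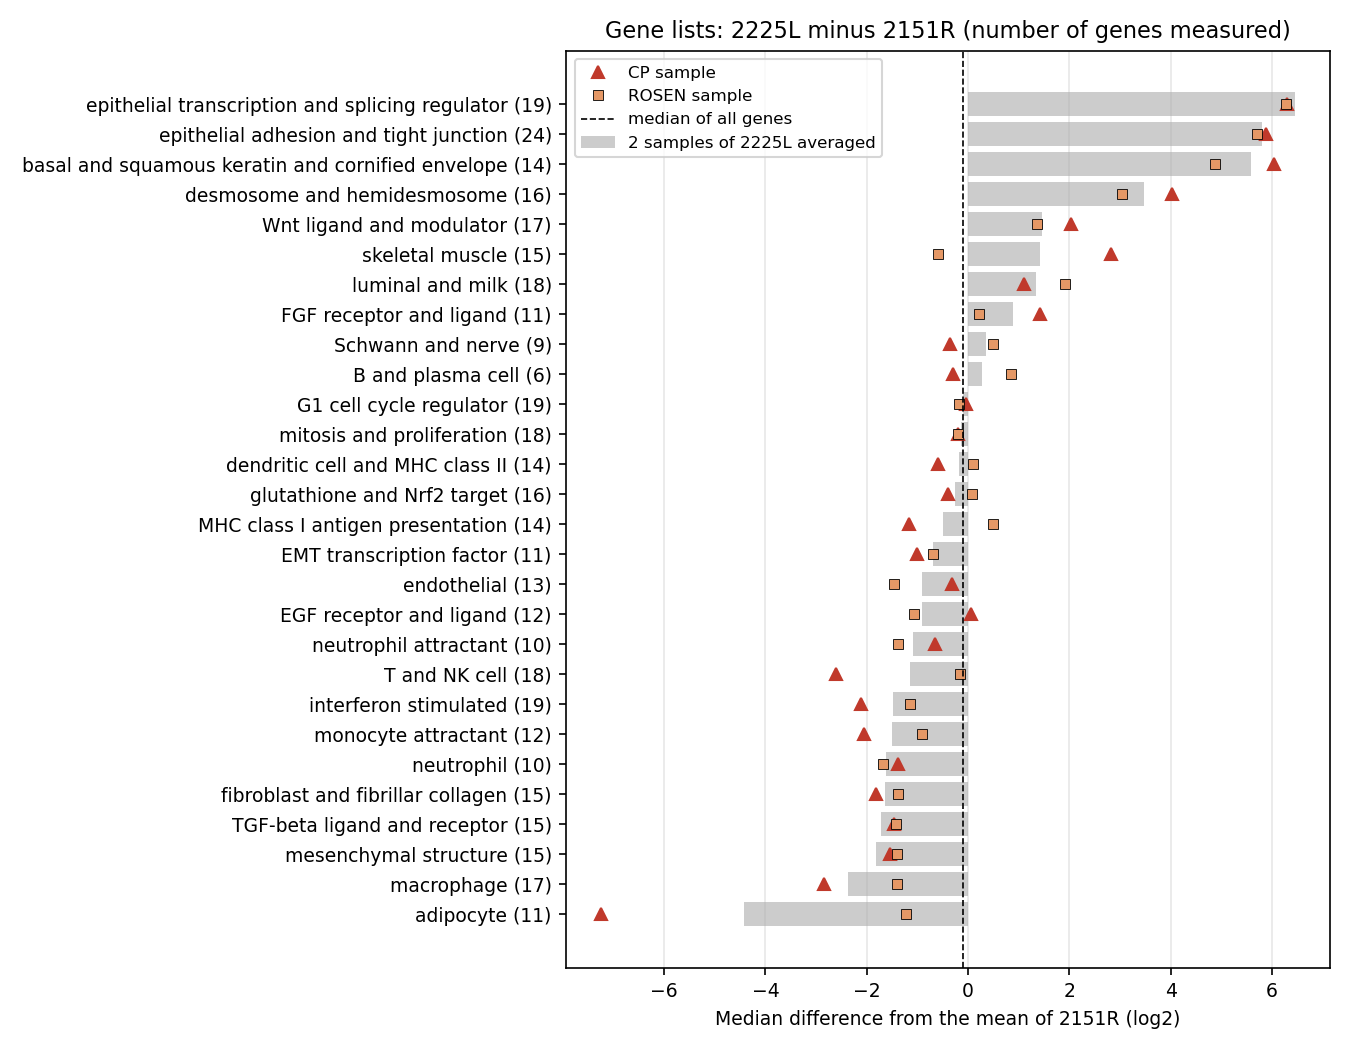
Median over the measured members of each gene list of the difference between 2225L and the mean of 2151R (horizontal axis, log2), for the 2 samples of 2225L averaged (bars), the CP sample (triangles) and the ROSEN sample (squares), with the number of genes in brackets and the median of all genes, -0.10, as a dashed line. The epithelial, basal and desmosome lists lie from 3.47 to 6.45, above 0 in each sample, and the CP and ROSEN samples lie on opposite sides of 0 at the skeletal muscle and MHC class I lists, among others.

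Macrophage markers were lower in 2225L. Of 17, 14 were lower in both samples, where 25.8% of all genes were called lower, with a median difference of -2.38. Msr1, a scavenger receptor, was at -2.85 and -1.82 in 2225L and at 1.47, 1.56, 1.35 and 1.18 in 2151R (difference -3.72, SE 0.33, limma adjusted p 1.37e-06). Csf1r, the receptor that macrophages need to survive, was at -1.92 and -0.67 against 0.82 to 1.18 (difference -2.24, SE 0.33), and Cd68 was at -0.89 and -0.93 against 1.32 to 1.61. The mean over the list was -1.98 in the CP sample and -0.88 in the ROSEN sample, against 0.30 to 0.68 in 2151R. Without the CP sample 7 of the 17 were lower and 1 was higher. Cd14, Cd163 and Trem2 were not called.

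Of 12 attractants of monocytes, 5 were lower in both samples (Cxcl12, Il34, Csf1, Ccl2 and Ccl3), where 25.8% of all genes were called lower. The median difference was -1.5. Cxcl12, the ligand of Cxcr4, was at -4.67 and -3.51 in 2225L and at 0.57, 0.75, 0.50 and 0.66 in 2151R (difference -4.72, SE 0.42, limma adjusted p 1.28e-06). Il34 and Csf1, the 2 ligands of Csf1r, were both lower. Il34 was at -2.09 and -0.66 against 1.85, 1.57, 1.62 and 1.66 (difference -3.05, SE 0.32), and Csf1 at -1.36 and -0.63 against 1.05 to 1.41 (difference -2.28, SE 0.30). The counts were 3 lower and 1 higher without the CP sample.

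Of 10 measured attractants of neutrophils, 2 were lower in both samples, where 25.8% of all genes were called lower: Il1b (difference -1.10) and Cxcl5. Cxcl5 was at -1.83 and -1.33 in 2225L against 0, 2.17, 0.66 and 1.5 in 2151R (difference -2.66, SE 1.03, limma adjusted p 0.0474), and the call was lost on leaving out any of 5 of the 6 samples, replicate 1 of 2151R being the exception. Ppbp, also a neutrophil chemokine gene, was lower in both samples (-1.99 and -1.40 against -1.09 to 1.14) but not called. The count was 1 without replicate 2 or 4 of 2151R and 0 without the ROSEN sample by limma, and in the fit of all samples 4 were lower and 1 higher at an unadjusted p under 0.05. Of 10 neutrophil markers, Csf3r and Cxcr2 were lower, by -1.97 and -3.07, and 1 was lower without the ROSEN sample. Cd177 and Ltf were higher: Cd177 was at 2.21 and 1.27 against -3.95, -1.71, -3.11 and -2.30 (difference 4.51, SE 1.01, limma adjusted p 0.00256), and Ltf, lactoferrin, is also made by mammary epithelium and is in the luminal list. With 2 of the 10 markers lower and 2 higher, the shares were near the 25.8% and 22.8% of all genes.

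Interferon stimulated genes were lower in both samples at 12 of 19, where 25.8% of all genes were called lower, with a median difference of -1.49. Ifit2 was at -3.46 and -2.47 in 2225L and at 0.90, 0.39, 0.39 and 0.40 in 2151R (difference -3.49, SE 0.42, limma adjusted p 1.83e-05). Oas2, a sensor of double-stranded RNA, was at -1.84 and -1.61 against 0.69, 1.48, 0.04 and -0.07 (difference -2.26, SE 0.58, limma adjusted p 0.00586), and the RNA sensor gene Ifih1 was lower by -2.21. With sample weights, 5 of the 19 were lower and the call of Oas2 was lost (adjusted p 0.113). Isg15, Irf7 and Cxcl10 were not called.

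MHC class I presentation genes gave 5 lower and 3 higher of 14 (all in both samples but H2-Q4), where 25.8% and 22.8% of all genes were called. The median difference was -1.17 in the CP sample and 0.49 in the ROSEN sample. H2-Q7 was at -3.57 and -0.88 in 2225L against 0.56, 0.52, -0.06 and 0.76 in 2151R (difference -2.67, SE 0.60, limma adjusted p 0.00256), and Nlrc5, the activator of class I genes, was at -2.45 and -0.56 against 0.64, 0.22, -0.17 and 0.48 (difference -1.80, SE 0.53, limma adjusted p 0.0126). B2m, the shared light chain, was lower in both (difference -1.63), and the peptide transporter genes Tap1 and Tap2 and the gene H2-T23 were higher. Without the CP sample 1 was lower and 5 higher, and H2-Q7 and Nlrc5 lost their calls (limma adjusted p 0.0527 and 0.225). Without the ROSEN sample 1 was higher.

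Lymphocyte markers set the 2 samples of 2225L apart. Of 18 T and NK cell markers, 6 were lower and 1 higher in both samples, where 25.8% and 22.8% of all genes were called. Eomes, a factor of cytotoxic lymphocytes, was lower by -3.63, and Ncr1, an NK receptor, by -3.26. Lck, a kinase of T cells, was the higher one, at 2.44 and 2.70 against -0.92, -1.08, -1.49 and -1.23 (difference 3.75, SE 0.50, limma adjusted p 4.19e-05). It did not move with the chains of the T cell receptor complex: Cd3d was at -3.21 in the CP sample and 1.99 in the ROSEN sample, and Cd8a at -2.90 and 1.25, each on opposite sides of 2151R (-0.30 to 0.74 and 0.30 to 0.47). The mean over the list was -1.33 in the CP sample and 0.52 in the ROSEN sample, against 0.53 to 1.15 in 2151R, and without the CP sample 1 member was lower.

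Of 6 B and plasma cell markers measured, Cd79a and Cd79b, chains of the B cell receptor complex, were higher and Pax5 and Jchain lower, and Jchain did not hold in both samples. Of all genes 22.8% were called higher and 25.8% lower. Cd79a was at 1.34 and 1.10 in 2225L against -1.65, -1.95, -1.57 and -0.71 in 2151R (difference 2.69, SE 0.67, limma adjusted p 0.00487). These counts rest on few genes: 1 was higher without either sample of 2225L, and the lower count was 0 without the CP sample and 1 without the ROSEN sample or replicate 1, 2 or 4 of 2151R. Of 14 dendritic cell and MHC class II genes 1 was called, where 48.6% of all genes were called. Flt3, a receptor of dendritic cell precursors, was at -3.60 and -0.69 against 3.03, 2.25, 2.31 and 2.48 (difference -4.66, SE 1.25, limma adjusted p 0.00791), and lost its call without the CP sample (adjusted p 0.108). The MHC class II genes themselves, such as H2-Aa (-0.94 and 0.36 against -1.39 to -0.29), were not called.

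Stromal markers were lower in part. Of 15 fibroblast and collagen genes, 7 were lower in both samples, among them Dcn (-3.43), Pdgfra (-2.89) and Col5a1 (-2.08), where 25.8% of all genes were called lower. The median difference was -1.63. The count was 4, near that share, with the library prefix as a covariate, with sample weights or with only the 2151R samples titled NT or NT2. Pi16, a marker of resting fibroblasts, was at -3.26 and 0 in 2225L against 0.24, 4.03, 1.40 and 2.10 in 2151R (difference -3.57, SE 1.37, limma adjusted p 0.0459), and its call was lost without the CP sample or replicate 2, 3 or 4 of 2151R. Of 13 endothelial genes, 1 was called (Cdh5, difference -1.26, limma adjusted p 0.0496), where 48.6% of all genes were called, and it did not hold in both samples. Tek, the angiopoietin receptor gene, was at -0.22 and -0.69 against 0.56, 1.46, 0.90 and 0.92 and was not called (difference -1.41, SE 0.61, limma adjusted p 0.0701). Without the CP sample 6 endothelial genes were lower, and none without the ROSEN sample or replicate 1, 2 or 4 of 2151R, where 4 had an unadjusted p under 0.05 in the fit of all samples.

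Adipocyte and muscle genes varied between samples of the same model. Of 11 adipocyte genes 2 were called lower, a share below the 25.8% of all genes. Adipoq, the adipocyte hormone adiponectin, was at -2.89 in the CP sample, 2.84 in the ROSEN sample and 3.56, 6.05, 5.37 and 2.45 in 2151R, and was not called (limma adjusted p 0.15). Plin4, a lipid droplet protein, was at -5.44 and -0.88 against 2.42, 3.95, 3.61 and 2.13 (difference -6.19, SE 2.15, limma adjusted p 0.0298). It and Lep were the 2 lower of 11 adipocyte genes, and the count was 0 without the CP sample or replicate 2 or 3 of 2151R and 1 without replicate 1. The muscle list had a mean of 5.73 in replicate 3 of 2151R, -2.96 to -2.86 in the other 3, 2.05 in the CP sample and -0.95 in the ROSEN sample. By limma 0 of its 15 genes were called, where 48.6% of all genes were, and 1 (Mb) was higher at an unadjusted p under 0.05. Mb, myoglobin, was at 1.10 and 0 against -6.62, -5.37, -1.30 and -5.71 (difference 5.30, SE 2.28, limma adjusted p 0.071), and was called without replicate 3 of 2151R.

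Of 9 Schwann cell and nerve genes measured, S100b, Mbp and Egr2 were higher and Pmp22 and Mag lower, all in both samples. Of all genes 22.8% were called higher and 25.8% lower. S100b, a calcium-binding protein of glia that some epithelial cells also make, was at 1.55 and 3.52 in 2225L against -1.33, -0.94, -0.76 and -1.91 in 2151R (difference 3.77, SE 0.49, limma adjusted p 3.72e-05). Without the CP sample or replicate 1, 2 or 4 of 2151R 1 member was lower. The part that the number of cells of these types plays in the other results was not tested.

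**Figure D4:**
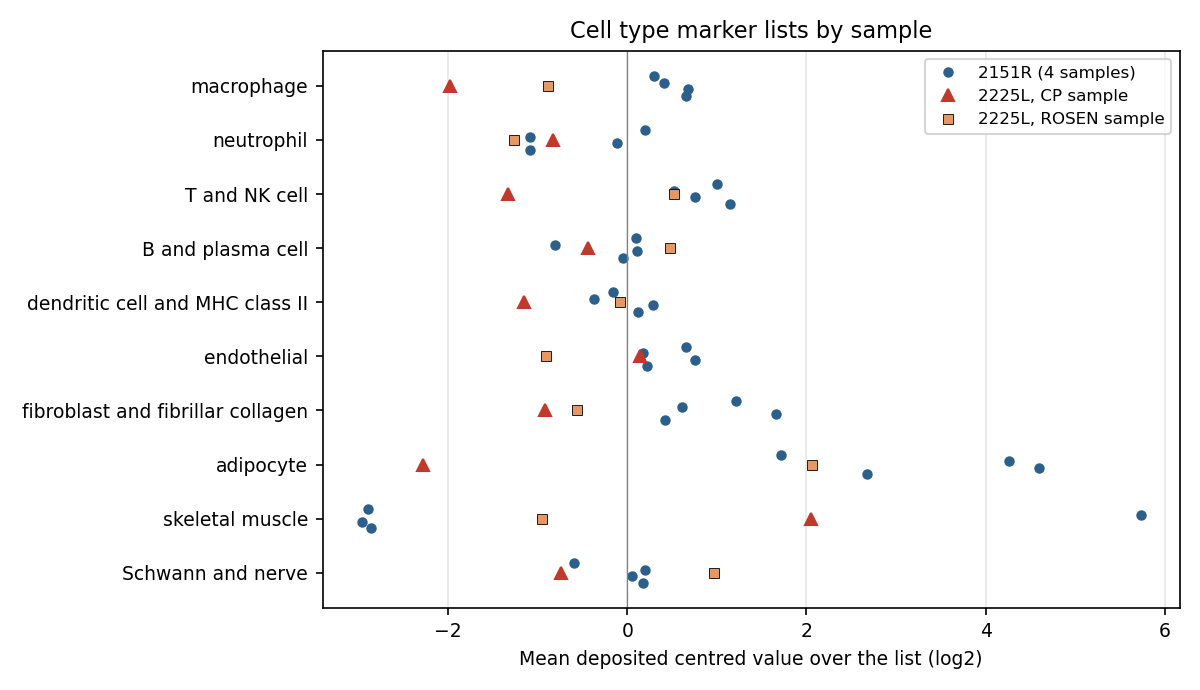
Mean deposited centred log2 value (horizontal axis) over each list of cell type markers in the 4 samples of 2151R, the CP sample and the ROSEN sample. Both samples of 2225L lie below 2151R for the macrophage and the fibroblast lists. They also do so narrowly for the endothelial list (CP sample 0.15, lowest 2151R sample 0.18) and the T and NK cell list (ROSEN sample 0.52, lowest 2151R sample 0.53). They lie apart for adipocyte (-2.28 and 2.06) and muscle (2.05 and -0.95), and replicate 3 of 2151R stands at 5.73 for muscle.

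Some of the largest differences were not shared by the 2 samples of 2225L. Among genes on opposite sides of 2151R, Mme, a membrane peptidase of myoepithelial and stromal cells, was at -9.05 in the CP sample and 1.95 in the ROSEN sample against 0.85, 0.17, -0.26 and 0.42 in 2151R. Ddo, which oxidises D-aspartate, was at -2.22 and 6.85 against 1.29, 0.81, 1.73 and 0.35. Adora1, an adenosine receptor gene, was at -4.28 and 4.64 against 0.87, 2.28, 2.34 and 0.07. None of these 3 was called in the fit of both samples, with limma adjusted p of 0.125, 0.683 and 0.596 and unadjusted p of 0.0736, 0.602 and 0.504.

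Of the 89 higher calls that did not hold in both samples, 40 rested on the CP sample and 49 on the ROSEN sample. Of the 93 lower ones, 38 rested on the CP sample, 54 on the ROSEN sample and 1 on neither. Hepacam2, a cell adhesion gene, was at 0.05 in the CP sample and 9.54 in the ROSEN sample against 0.88, 0.63, -1.45 and 0 in 2151R (difference 4.78, SE 1.79, limma adjusted p 0.0414). Dpp10, which modulates potassium channels, was at 0 and 8.91 against 0, 0, -0.64 and 0.39, and Dkk4, a Wnt antagonist, was at 8.63 and 0 against 0 in each sample of 2151R. For these 3 genes the sample of 2225L with the lower value lay within the values of 2151R, and the exact value of 0 at Dpp10 and Dkk4 is shared by several samples. The calls of Hepacam2 and Dpp10 were lost on leaving out the ROSEN sample or any sample of 2151R, and that of Dkk4 without the CP sample.

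Differences that held in both samples also ran along chromosomes. The 16236 genes (94.0%) that could be placed by symbol in the RefSeq annotation of GRCm38.p6, the counterpart of the mm10 build in the submitters' processing notes, were put in windows of 60 neighbours. Of 269 windows, 27 were higher and 34 lower in both samples, meaning that the window median moved by over 0.5 from the mean of 2151R after the median of all genes was taken out. These made up 22.7% of windows. A further 16 were shifted in the CP sample alone and 50 in the ROSEN sample alone. When each sample of 2151R was set against the other 3 in the same way, 0 windows lay beyond 0.5, and the values ran from -0.28 to 0.25. The 2 samples of 2225L differed from each other by over 0.5 in 37 windows.

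The shifted windows clustered on certain chromosomes. On chromosome 13, 9 of 10 windows were lower, and 309 of its 611 genes (50.6%) were called lower, against 25.8% of all genes. Chromosomes 3 and 18 had 8 of 13 and 4 of 7 windows lower, with 44.6% and 50.2% of genes called lower. Chromosome 7 had 6 of 21 windows higher and X 3 of 9, with 34.6% and 34.9% of genes called higher, against 22.8% of all genes. Chromosomes 11, 12, 16 and 19 had 0 windows shifted in both samples.

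The genes named from windows were chosen after their values were seen. Ranked by the weaker of the 2 samples' shifts, the strongest lower window was chr6:3330738-18879589, with median shifts of -2.45 in the CP sample and -1.93 in the ROSEN sample, where 42 of 60 genes were called lower. It holds Met, the receptor of hepatocyte growth factor, at -2.25 and -0.77 in 2225L against a mean of 4.58 in 2151R (difference -6.09, SE 0.42, limma adjusted p 1.38e-07). In 2208L Met ran from 3.88 to 5.05, beside the level of 2151R. Its neighbours Tes, Cav2, Cav1 and Capza2 were lower by -6.34, -4.95, -4.73 and -4.61. The next was chr18:37447657-43438286 (shifts of -1.36 and -2.26), where the clustered protocadherin genes lie, which give neurons distinct surface identities. There Pcdhga11 was at -3.67 and -3.66 against a mean of 2.54, and 41 of 60 genes were called lower. The Pcdhga, Pcdhgb and Pcdhgc genes among them overlap, most ending at nearly the same base (37841870 for Pcdhga1 and 37841873 for Pcdhga11). Their calls are therefore not those of separate neighbours. The third was chr5:93181933-105496929 (-1.36 and -1.10), with Prdm8 and its neighbour Antxr2 (difference -5.61).

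The strongest higher window was chr1:74566331-84900487, with shifts of 2.18 and 1.37, where 37 of 60 genes were called higher. It holds Wnt6, Wnt10a and, by a difference of 3.14, the hedgehog ligand gene Ihh. Within it Ptprn, a protein of secretory granules, went the other way, at -1.79 and -3.33 against a mean of 4.26. On chromosome 7 the window chr7:19581038-25365917 was higher by 1.24 and 1.41. It holds Cd79a and Cd177, described above, beside Cblc, an epithelial ubiquitin ligase gene (difference 6.71), and 39 of its 60 genes were called higher. A further window, chr7:4992852-16244154, was higher by 1.08 and 1.30, with the imprinted neighbours Peg3 (difference 3.21) and Usp29 (5.71).

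**Figure D5:**
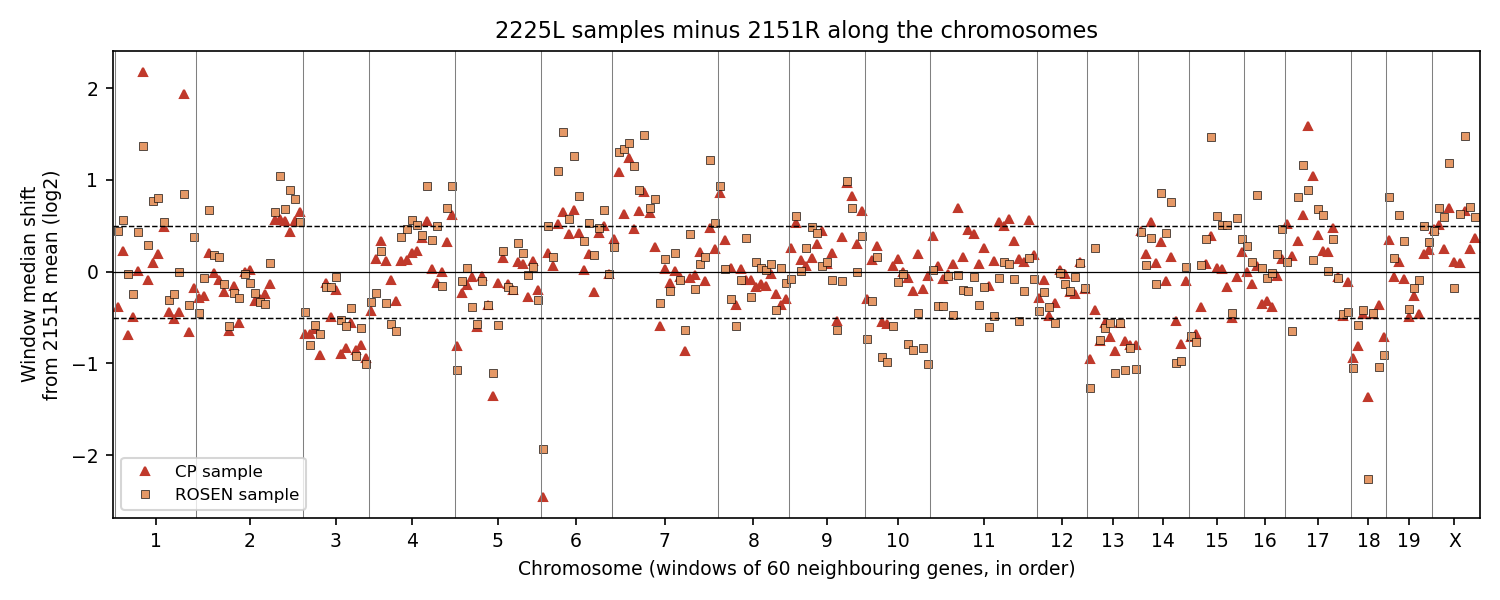
Median shift of each window of 60 neighbouring genes from the mean of 2151R (vertical axis, log2, less the median of all genes) for the CP sample (triangles) and the ROSEN sample (squares), with the 269 windows in genome order along the horizontal axis and dashed lines at 0.5 and -0.5. Both samples lie below -0.5 in 9 of 10 windows of chromosome 13, and the lowest pair is the first window of chromosome 6 (-2.45 and -1.93).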

How the data were processed

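The deposited table holds 1 value per gene and sample, in log2 units centred by the authors on a reference that is not given in the sources used here (1124 genes have a median of exactly 0). Per the submitters' processing notes STAR, Salmon and mm10 were used, with no roles given. Per the labels' protocols total RNA was column purified and poly(A) libraries were made. No counts were used, so depth is unknown and no counting interval is given. From these values limma 3.58.1 in R 4.3.3 fitted a mean per model over all 15 samples, with empirical Bayes and Benjamini-Hochberg adjustment over 17271 genes. Beside 2225L, 2151R and 2208L, the samples include 1 of a further model, T11, which alone adds nothing to the estimate of the spread. The fit was tested on simulated data, in which 100 genes were changed by 1 log2 unit and 100 by 2. It recovered 19% and 61% of them, and 5 of its 85 calls were unchanged genes. Far fewer genes were changed there than the 48.6% called in the data, and the Benjamini-Hochberg cutoff depends on that share. The recovered shares are therefore not those of the comparison reported here. A gene not called may still differ. The simulated spread of a gene was the same in every model, unlike that of the samples of 2225L and 2151R. An exact permutation test of 2 against 4 samples cannot go below 0.133. Groups were taken from the titles, which also carry library prefixes. The members and gene lists were chosen with earlier results of these data known. The genes named are Trp53, the 5 with the widest gap in each direction (without predicted genes and genes whose value 2 or more of the 6 samples share), the 3 genes widest apart on opposite sides, the 3 widest among calls not held in both samples, and the 2 largest differences in each tumour list and 1 in each cell type list. Other list members were named for their role or their call. p-values measure only the spread between samples. That spread was 1 estimate per gene shared by all models, with the 8 differently tagged samples of 2208L included. Fitted to the 6 samples of 2225L and 2151R alone, limma called Ppbp, Tek and Mb, which the main fit did not. In that fit 4 neutrophil attractants were lower, in place of 2. Alternatives were other samples, covariates, weights, filters and scalings, and leaving out each sample. Positions come from RefSeq (GRCm38.p6). A few list members are counted but not reported by name here.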

Additional observations from a re-analysis of the deposited data

Results flagged for a closer look

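Each result here is a value of 2151R in which 1 of the 4 samples stood far from the other 3. Of 91 groups of values tested 9 were found, and chance gives about 1 in 20 (4.55). Among genes, Wnt6 was at -2.42 in replicate 4 (others -0.44 to -0.28), Grhl3 at -7.47 in replicate 1 (others -6.22) and Lgals7 at -6.50 in replicate 2 (others -5.45 to -5.28). At Grhl3 the other 3 samples share an exact value, so any different value in replicate 1 would have stood apart. Bub1 was at 1.38 (others 1.11 to 1.12) and Ifit2 at 0.90 (others 0.39 to 0.40), both in replicate 1. Among list means, the skeletal muscle list was at 5.73 in replicate 3 (others -2.96 to -2.86) and the B and plasma cell list at -0.81 in replicate 3 (others -0.05 to 0.11). The monocyte attractant list was at 0.79 (others 0.12 to 0.21) and the epithelial regulator list at -4.15 (others -3.79 to -3.78), both in replicate 2.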

How the results depend on the processing

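None of the calls held in both samples was called in the opposite direction under the alternatives run. For most alternatives this was fixed in advance, since both samples of 2225L lay beyond all 4 of 2151R. Only the prefix covariate, centring and quantile normalization could turn a sign. Under these, 3199, 3844 and 3446 of the held higher calls and 3595, 4195 and 3424 of the held lower calls stayed called. With sample weights the calls were 2529 higher and 2723 lower, of which 2517 and 2718 held in both samples. Leaving out 1 sample gave 2990 to 4091 higher and 3621 to 4246 lower genes, with 2990 to 4091 and 3621 to 4227 on 1 side of 2151R. The lowest counts on leaving out 1 sample came without the ROSEN sample. With the library prefix as a covariate there were 3508 and 3845. With only the 2151R samples titled NT or NT2 there were 3015 and 3189, and with the 6 samples of 2225L and 2151R alone 3695 and 4245. With 2208L split by its title tags there were 4648 and 5359. Calls shared by the fits of each sample of 2225L alone were 2292 and 2467. The median difference was -0.19 without the genes of lowest spread, -0.028 with samples centred on their medians, -0.021 after quantile normalization, and -0.13 to -0.07 on leaving out 1 sample. Windows shifted in both samples numbered 135 with 30 genes and 32 with 100 genes each, and 56 to 60 on leaving out 1 sample of 2151R. Of 62 named genes 39 kept direction and call throughout. Without the CP sample the difference was 1.66 (Mme), 3.25 (Adora1), -0.38 (Trp53) and 5.80 (Ddo), and without the ROSEN sample -9.35, -5.67, 1.44 and -3.26, so the sign of each rests on which sample is left out. With sample weights S100a4, Fgfr2, Bub1, Foxm1, Oas2, Cxcl5, Cd177, Cd79a, Flt3, Pi16, Plin4, Hepacam2 and Dpp10 lost their calls. Of 986 list counts under alternatives 130 moved by over 1.5 times. For these changes the cause was not tested. No paired analysis was possible because no number is shared between titles of the 2 models.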
